A study of Rattus norvegicus with 12 samples.

Results

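The early response of primary rat microglia to medium carrying neuron-released α-synuclein was read from 6 of the 12 arrays of the series, the 3 arrays of microglia kept for 6 h in α-synuclein medium (aSCM) and the 3 kept for 6 h in LacZ medium (LZCM). The arrays were chosen by their labelled medium and time alone. Both media came from the human neuroblastoma line SH-SY5Y, in differentiated form, and all donor cells had been infected with an adenoviral vector. For aSCM the donor cells carried an adenoviral vector for α-synuclein, and for LZCM a vector for LacZ, which encodes β-galactosidase. The multiplicity of infection was 100, the donor cells conditioned serum-free DMEM for 18 h, and microglia received it as a 5-fold concentrate. The sources used here state neither the strain nor the age of the rats. The other 6 arrays repeat the comparison at 24 h and are used here for the shared estimate of each probe's spread, for the filter on dim probes and to ask whether an effect at 6 h differed from that at 24 h. The labels do not say that replicates came from separate cultures or from separate preparations of medium, so the p-values cover no more than the spread among these arrays, and that spread may be technical.

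α-Synuclein is a presynaptic protein that accumulates in the inclusions of Parkinson's disease and can leave neurons. Microglia, the resident macrophages of the brain, sense foreign and endogenous danger molecules through Toll-like receptors, which signal through the adaptor MyD88 and the IRAK kinases to the transcription factor NF-κB and switch on cytokine, chemokine and enzyme genes. The title of the series names TLR2 as the receptor of released α-synuclein, and the comparison at 6 h asks which genes the medium had changed by that time.

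Levels are normalized log2 signals of the brightest probe of each gene, and a gene was called when limma's Benjamini-Hochberg adjusted p, taken over all tested probes, was under 0.05. At 6 h between 11068 and 11425 of 22523 probes lay above background on an array, and arrays of 1 medium correlated at 0.996 to 0.998 against 0.961 to 0.965 between media. Of 8556 named genes tested, 2350 were higher (27.5%) and 2976 were lower (34.8%) in aSCM, with a median log2 fold change of -0.04. Rises made up 44.6% of the called probes, against 27% without normalization between arrays and 26.8% on the values as deposited, settings that moved the median of all tested probes from -0.02 to -0.18 and -0.15. Cyclic loess gave 49.7%, and scaling to the 75th percentile gave 54.2%, with a median of 0.10, 2839 genes higher and 2577 lower. Which direction holds more calls therefore depends on the scaling. Rises of at least 2-fold made up 7.18% of tested genes and falls of that size 6.9%, and rises of at least 4-fold numbered 184 (2.15%) and falls 76 (0.888%). Because 57.3% of tested probes and 62.2% of genes passed the test and 66.9% had groups that did not overlap, a call alone sets no gene apart, and the size of a change is given with each.

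Microglial identity was checked first. Of 13 microglial markers with a probe, 13 were above background on every LZCM array and 12 on every aSCM array. The exception was Cx3cr1, the receptor of the neuronal chemokine fractalkine. By the test at 6 h, 8 of the 13 were lower in aSCM (61.5%, against 34.8% of all tested genes) and 3 were not called. The other 2, Spi1 (0.49) and Itgam (0.23), were higher (15.4%, against 27.5%). Summed linear signals of the microglial list were 218000 to 221000 in aSCM and 259000 to 267000 in LZCM. Markers of other brain cells were also present. The 9 astrocyte markers summed to 4710 to 4940 in aSCM and 8090 to 8350 in LZCM, and the 13 oligodendrocyte lineage markers to 8460 to 9260 and 14500 to 16100. Both sums were thus lower in aSCM without overlap. The fall of the astrocyte sum rests largely on its brightest LZCM member, Slc1a3, with mean levels of 12.18 in LZCM and 10.38 in aSCM. The next brightest in LZCM, Gja1, went up from 10.79 to 11.01. The sum without Slc1a3 was not tested. Of the astrocyte markers 5 of 7 tested were lower (71.4%, against 34.8% of all tested genes). Of the others 1, Slc1a2 (0.09), was not called and 1, Gja1 (0.22), was higher (14.3%, against 27.5%). Gfap, Slc1a3, Gja1, Aldoc and Slc1a2 were above background on all 6 arrays, and Aqp4 and Gjb6 on none. Of the oligodendrocyte lineage markers 7 of 12 tested were lower (58.3%, against 34.8% of all tested genes) and 0 were higher (against 27.5%). The other 5, among them Olig2 (-0.02) and Mog (0.04), were not called. Neuronal markers summed to 3670 to 3980 in aSCM and 3390 to 3880 in LZCM, ranges that overlapped, but members moved both ways. Of 12 tested 4 were higher (33.3%, against 27.5% of all tested genes), among them Nefl (1.08) and Nefm (0.95). The 2 that were lower (16.7%, against 34.8%) were Stmn2 (-1.08) and Tubb3 (-0.37). Spi1, Itgam, Gja1, Aldoc, Slc1a2, Olig2, Mog and Tubb3 were chosen after their values were seen. Markers of fibroblasts and pericytes (784 to 921 against 1010 to 1170), endothelium (730 to 801 against 636 to 695), neutrophils (474 to 552 against 404 to 439) and T or NK cells (511 to 576 against 612 to 660) had lower sums than the lists above, and these did not overlap between media. Of these lists 6 of 8, 3 of 8, 5 of 8 and 7 of 10 members were above background on no array at 6 h, so these sums are partly background. In these bulk samples fewer cells of a type and less RNA per cell cannot be told apart, and the part of other cells in the results below was not tested.

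The largest rise was that of Cxcl2, a chemokine that draws neutrophils. Its levels were 15.56, 15.48 and 15.56 on the aSCM arrays and 8.50, 8.41 and 9.18 on the LZCM arrays, 114-fold higher (95% interval 89.1 to 147, limma adjusted p = 8.3e-12). Il6, the gene of the cytokine interleukin-6, followed at 13.24, 12.97 and 12.88 in aSCM against 6.05, 6.14 and 6.65 in LZCM, 108-fold higher, with 2 of 3 LZCM arrays above background. Ccl20, a chemokine for CCR6-bearing lymphocytes, stood at 12.45, 12.46 and 12.36 against 6.12, 5.88 and 6.60, 74.8-fold higher, again with 2 of 3 LZCM arrays above background. Control levels of Il6 and Ccl20 lay near the detection limit while that of Cxcl2 was detected on every array, and in each of the 3 genes the LZCM array of replicate 3 was the highest of the control arrays.

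The promoters of Cxcl2, Il6 and Ccl20 are shown because they carry the κB element that NF-κB binds and belong to the 3 largest rises. Each window is the 250 bases before the start site in the RefSeq table of build GRCr8, printed 5′ to 3′ along the gene, with the κB consensus match in capitals. The windows lie at chr14:17467256-17467505 on the minus strand for Cxcl2, chr4:5894576-5894825 on the minus strand for Il6 and chr9:91836909-91837158 on the plus strand for Ccl20.
Cxcl2: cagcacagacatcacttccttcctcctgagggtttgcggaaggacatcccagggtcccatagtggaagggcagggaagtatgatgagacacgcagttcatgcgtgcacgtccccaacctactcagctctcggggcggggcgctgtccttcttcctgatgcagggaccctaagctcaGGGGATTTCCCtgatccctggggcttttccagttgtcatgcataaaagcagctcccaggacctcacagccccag
Il6: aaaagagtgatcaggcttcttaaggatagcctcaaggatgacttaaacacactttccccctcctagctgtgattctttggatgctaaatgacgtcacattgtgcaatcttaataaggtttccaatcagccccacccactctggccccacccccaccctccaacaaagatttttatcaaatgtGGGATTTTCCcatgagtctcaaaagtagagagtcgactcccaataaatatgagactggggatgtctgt
Ccl20: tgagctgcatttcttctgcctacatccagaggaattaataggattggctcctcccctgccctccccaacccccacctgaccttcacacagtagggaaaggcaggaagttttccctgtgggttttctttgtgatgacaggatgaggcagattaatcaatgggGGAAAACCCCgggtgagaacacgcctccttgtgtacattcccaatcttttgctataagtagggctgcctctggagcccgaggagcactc
The match began 74 bases before the start site in Cxcl2, where a further match overlaps it by all but 1 base, 68 bases before it in Il6 and 89 bases before it in Ccl20. The Il6 window also held TGACGTCA, the palindromic cyclic AMP response element.

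The κB consensus of 10 letters was sought on both strands, and overlapping matches counted once per window. It was found in 1761 of 27457 windows of all genes (6.41%) and in 600 of 7166 windows of tested genes (8.37%). Of the 9 of the 15 largest rises that had a window, 3 held it, and of 14 of the 15 largest falls 0 did. Among genes at least 4-fold higher it was present in 25 of 144 windows (17.4%). It was found in 6 of 62 (9.68%) among those at least 4-fold lower and in 216 of 2678 (8.07%) among genes not called. The κB element did not stand alone, since other motifs were also more frequent among genes at least 4-fold higher than among tested genes. These were TATAAA (19.4% against 7.33%), TGANTCA, where N is any base (13.2% against 4.72%), and TGACGTCA (4.86% against 3.01%). These are descriptions of letters in a short window and do not show binding.

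The other 12 of the 15 largest rises are given by what they encode. Ptgs2, the cyclooxygenase of inflammatory prostaglandin synthesis, measured 15.05, 14.95 and 15.09 in aSCM against 8.79, 8.87 and 9.41 in LZCM, 64.4-fold higher (limma adjusted p = 4.92e-12). Nos2, inducible nitric oxide synthase, measured 11.35, 11.15 and 11.81 against 5.55, 5.88 and 6.16, 47.5-fold higher, with 1 of 3 LZCM arrays above background. Ch25h, which makes 25-hydroxycholesterol, measured 14.82, 14.88 and 14.66 against 9.96, 9.95 and 10.43, 25.6-fold higher. The aSCM arrays of these enzymes lay above every LZCM array by at least 4 log2 units.

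Among receptors, Hcar2, which senses niacin and ketone bodies, measured 12.90, 12.77 and 12.78 in aSCM against 6.76, 6.64 and 7.24 in LZCM, 61.4-fold higher. The adenosine receptor gene Adora2a measured 12.89, 12.86 and 12.25 against 6.72, 6.70 and 7.15, 56.1-fold higher. Clec4e, the C-type lectin Mincle, measured 12.12, 12.05 and 11.84 against 6.76, 6.67 and 7.02, 36.5-fold higher. All 3 were above background on every array, and the groups lay far apart. Cd69, an early activation marker of leukocytes, measured 14.25, 14.20 and 14.04 against 8.63, 8.57 and 9.44, 39-fold higher, and Plet1, a surface glycoprotein known from epithelia, 12.42, 12.62 and 12.58 against 7.64, 7.08 and 7.57, 34.5-fold higher.

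Il1a, interleukin-1α, measured 15.20, 15.31 and 15.35 in aSCM against 10.02, 10.19 and 10.82 in LZCM, 30.7-fold higher. Ccl4, a chemokine of activated macrophages, measured 15.54, 15.52 and 15.48 against 10.03, 10.27 and 10.90, 34.6-fold higher. Csf3, the granulocyte growth factor gene, measured 11.60, 11.35 and 11.51 against 5.92, 5.96 and 6.49, 41.2-fold higher, with 1 of 3 LZCM arrays above background. Cflar, an inhibitor of caspase-8 that protects from death receptor signals, measured 12.52, 12.42 and 11.997 against 7.21, 7.15 and 7.51, 32.5-fold higher.

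Some of these signals were close to the top of the scale. Before normalization the aSCM values of Cxcl2 lay 0.11 to 0.25 below the highest probe of their array on the log2 scale, those of Ccl4 0.12 to 0.35 and those of Il1a 0.40 to 0.48. How far this limits their fold changes was not tested. In 14 of the 15 largest rises the highest LZCM value came from replicate 3, which was the highest LZCM array for 30.1% of all tested genes. With LZCM replicate 3 left out, the log2 fold change was 7.09 for Cxcl2 against 6.84 with it, 6.93 for Il6 against 6.75, and 5.18 for Il1a against 4.94. Leaving out the highest control array lowers the control mean, so a larger value is favoured in advance and is no check on these rises.

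**Figure D1:**
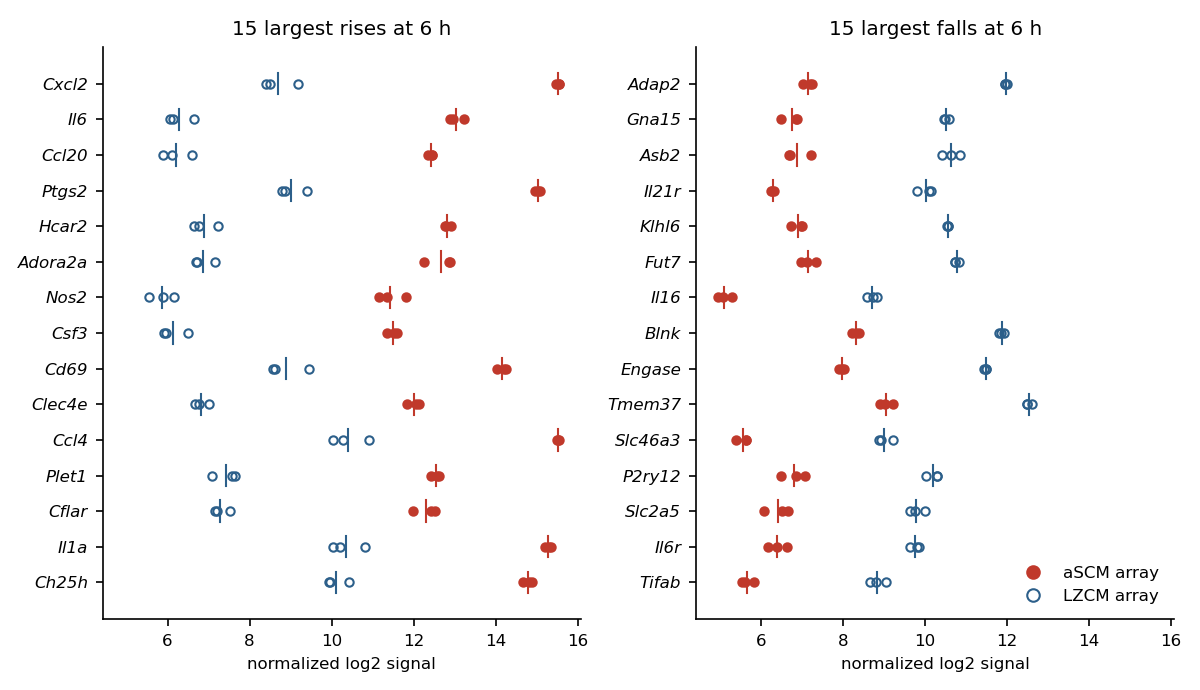
Normalized log2 signal (horizontal axis) of the 15 genes with the largest rises and the 15 with the largest falls at 6 h, 1 point per array, filled for aSCM and open for LZCM. The 3 aSCM arrays lie apart from the 3 LZCM arrays in each gene shown, from 15.56 against 8.50 at the top of the rises to 7.21 against 11.96 at the top of the falls.

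The largest fall was that of Adap2, a GTPase-activating protein for ARF6. Its levels were 7.21, 7.24 and 7.04 in aSCM against 11.96, 11.99 and 11.95 in LZCM, 28-fold lower (limma adjusted p = 7.65e-13). P2ry12, the ADP receptor by which resting microglia sense tissue injury, measured 6.85, 7.07 and 6.49 against 10.30, 10.30 and 10.04, 10.6-fold lower. Gna15, a G protein α subunit of blood cells, measured 6.89, 6.50 and 6.86 against 10.46, 10.50 and 10.58, 13.6-fold lower. Each was bright in control medium and close to background in α-synuclein medium.

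Cytokine receptors stood among the falls. Il21r, the interleukin-21 receptor, measured 6.33, 6.28 and 6.26 in aSCM against 10.15, 9.81 and 10.09 in LZCM, 13.2-fold lower, and Il6r, the ligand-binding chain of the interleukin-6 receptor, 6.40, 6.64 and 6.18 against 9.81, 9.86 and 9.64, 10.3-fold lower. Il6r thus fell in the same arrays in which Il6 rose. The other large falls were Asb2 (13.6-fold), a ubiquitin ligase subunit, Klhl6 (12.5-fold), Fut7 (12.3-fold), a fucosyltransferase that makes selectin ligands, Blnk (11.8-fold), an adaptor of B cells and macrophages, Engase (11.3-fold), which cleaves N-glycans, and Tmem37 (11.2-fold). The fructose transporter gene Slc2a5 was 10.3-fold lower, with 2 of 3 aSCM arrays above background. Of the remaining falls Il16 was at least 6.06-fold lower (limma adjusted p = 4.24e-11), Slc46a3, a lysosomal transporter, at least 7.44-fold (limma adjusted p = 3.57e-11) and Tifab at least 6.60-fold (limma adjusted p = 2.84e-10). These 3 genes were not above background on any aSCM array, so their fold is a bound from the lowest detected signals.

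Genes of the Toll-like receptor pathway did not move one way. Of 27 listed receptors, co-receptors and adaptors 17 were tested. Of these 8 rose (47.1%, against 27.5% of all tested genes), 5 fell (29.4%, against 34.8%) and 4 were not called. The median log2 fold change was 0.07. Without normalization between arrays the list held 5 rises and 6 falls. Tlr2 measured 14.57, 14.68 and 14.49 in aSCM against 13.44, 13.52 and 13.68 in LZCM, 2.05-fold higher (95% interval 1.83 to 2.29, limma adjusted p = 1.07e-07). Tlr4, the receptor of bacterial lipopolysaccharide, went the other way, at 7.60, 7.54 and 7.73 against 8.95, 9.15 and 9.09, 2.71-fold lower (limma adjusted p = 3.64e-09). Neither gene's groups overlapped. Tlr7, an endosomal RNA sensor, measured 13.06, 13.11 and 12.98 against 11.59, 11.64 and 11.57, 2.73-fold higher. Tlr5, the flagellin receptor, was at least 1.70-fold lower and above background on 0 of 3 aSCM arrays.

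Tlr6, which encodes a partner of TLR2 in recognizing lipopeptides, was not called, with a log2 fold change of -0.08 ± 0.08 (SE, limma adjusted p = 0.428). The co-receptor gene Cd14 rose 2.11-fold, from 14.17, 14.17 and 14.36 in LZCM to 15.41, 15.26 and 15.27 in aSCM, and its aSCM values lay within 0.57 of the array maximum. Cd36, a scavenger receptor that can assist TLR2, was not called at -0.30 ± 0.13 (SE, limma adjusted p = 0.0611), but was called in 10 of 23 alternative settings, among them the 1 without aSCM replicate 3 (-0.38). Of the kinases, Irak2 measured 10.74, 10.68 and 10.57 against 8.12, 8.09 and 8.24, 5.72-fold higher, and Irak3, the IRAK family member that restrains signalling, rose 2.64-fold. Irak4, the kinase that starts the cascade, fell by 0.39 on the log2 scale and Irak1 was not called at -0.02.

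The adaptor gene Myd88 was slightly lower, with a log2 fold change of -0.21 ± 0.07 (SE, limma adjusted p = 0.0265), and lost its call in 9 of 23 alternative settings, among them those without LZCM replicate 2 (-0.19) or 3. Ticam2, the adaptor of TLR4 for the interferon branch, fell by 1.11 on the log2 scale. Traf6, the ubiquitin ligase downstream of the IRAKs, rose by 0.52, Tollip, an inhibitor of the receptor complex, by 0.32 and Tab2 by 0.20. The calls of Traf6, Tollip and Tab2 were lost without normalization between arrays. Tab2 kept its call in only 14 of 23 alternative settings. Leaving out LZCM replicate 1 or 2, or aSCM replicate 1 or 2, also removed it. The kinase gene Map3k7 was not called at 0.07. The largest changes in the list were therefore in Irak2, upward, and in Tlr7, Tlr4 and Irak3, while Myd88, Irak1 and Irak4 moved by less than 0.4.

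**Figure D2:**
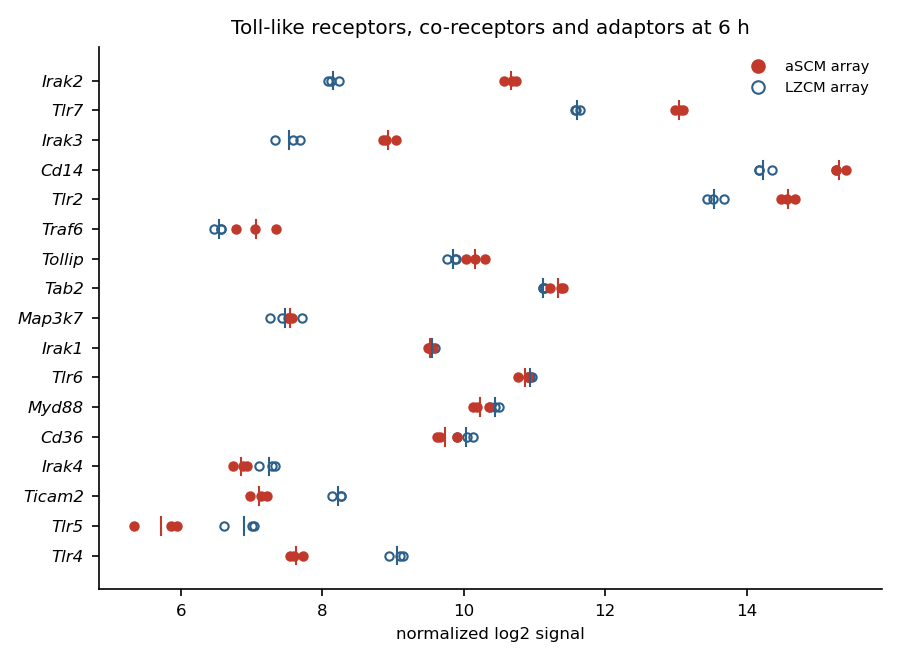
Normalized log2 signal at 6 h of the 17 tested Toll-like receptor, co-receptor and adaptor genes, 1 point per array, filled for aSCM and open for LZCM. Tlr2 lies to the right in aSCM (14.57, 14.68 and 14.49 against 13.44, 13.52 and 13.68) and Tlr4 to the left (7.60, 7.54 and 7.73 against 8.95, 9.15 and 9.09).

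NF-κB family and control genes rose almost throughout. Of 14 tested, 12 rose (85.7%, against 27.5% of all tested genes) and 1 fell (7.14%, against 34.8%). The median log2 fold change was 1.01 against -0.04 for all tested genes. Nfkb1, the p105/p50 subunit, measured 10.19, 10.18 and 10.39 in aSCM against 7.29, 7.31 and 7.17 in LZCM, 7.97-fold higher (limma adjusted p = 1.42e-11). Nfkbiz, an inducible co-activator of secondary NF-κB targets, measured 10.71, 10.73 and 10.35 against 7.39, 7.43 and 7.39, 9.15-fold higher. Birc3, an ubiquitin ligase of TNF receptor signalling, rose by 3.33 and Nfkb2 by 2.19 on the log2 scale. The member that fell was Ikbke, a non-canonical IκB kinase, at -0.64, chosen after its value was seen.

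Cytokine genes rose in 16 of 18 tested (88.9%, against 27.5% of all tested genes) and fell in 0 (against 34.8%). The median log2 fold change was 2.53, and 11 rose at least 4-fold. Besides Il6, Csf3 and Il1a, the rule for named genes took Tnf, the tumour necrosis factor gene, which measured 11.21, 10.90 and 10.97 in aSCM against 6.58, 6.33 and 6.44 in LZCM, 23.8-fold higher (limma adjusted p = 2.12e-11). Il1b, the gene of interleukin-1β, was chosen after its values were seen. It measured 15.52, 15.49 and 15.55 against 12.70, 12.97 and 13.59, 5.41-fold higher, from control levels that were already high and to aSCM levels 0.12 to 0.26 below the array maximum. Il12b and Il18, cytokines of the interferon-γ axis, were not called at 0.36 and 0.23 and were likewise chosen after their values were seen.

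Chemokine genes rose in 15 of 19 tested (78.9%, against 27.5% of all tested genes) and fell in 1 (5.26%, against 34.8%). The median was 2.63, and 12 rose at least 4-fold. After Cxcl2, Ccl20 and Ccl4 came Cxcl1, a further neutrophil chemokine. It measured 15.47, 15.45 and 15.32 in aSCM against 10.46, 10.59 and 11.25 in LZCM, 25.1-fold higher (limma adjusted p = 9.94e-11). Before normalization the aSCM values of Cxcl1 were 15.77, 15.52 and 15.15, close to the array maxima of 15.93, 15.82 and 15.67. How far this limits its fold change was not tested. The gene that fell was Ccl6 at -0.64 and was chosen after its value was seen. Of 10 chemokine receptor genes 2 rose (20%, against 27.5% of all tested genes) and 2 fell (20%, against 34.8%). Both shares were below those of all genes. The dim Cxcr1 at 0.35 and Ccr2 at -0.46 were called in some settings only. Ccrl2, an atypical receptor that holds chemerin on the cell surface, measured 13.40, 13.22 and 13.28 against 9.01, 8.94 and 8.99, 20-fold higher (limma adjusted p = 1.14e-12). Cx3cr1 measured 5.77, 5.86 and 6.00 against 8.57, 8.72 and 8.74, at least 5.89-fold lower (limma adjusted p = 5.09e-11), with no aSCM array above background.

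Cytokine receptor genes, in contrast to their ligands, were more often lower than higher. They were called lower in 7 of 14 (50%, against 34.8% of all tested genes) and higher in 2 (14.3%, against 27.5%). The median was -0.28. Besides Il21r and Il6r, the interferon-γ receptor gene Ifngr1 fell by 1.91 and the TGF-β receptor gene Tgfbr1 by 1.14 on the log2 scale. The difference in direction between ligand and receptor lists was not tested.

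**Figure D3:**
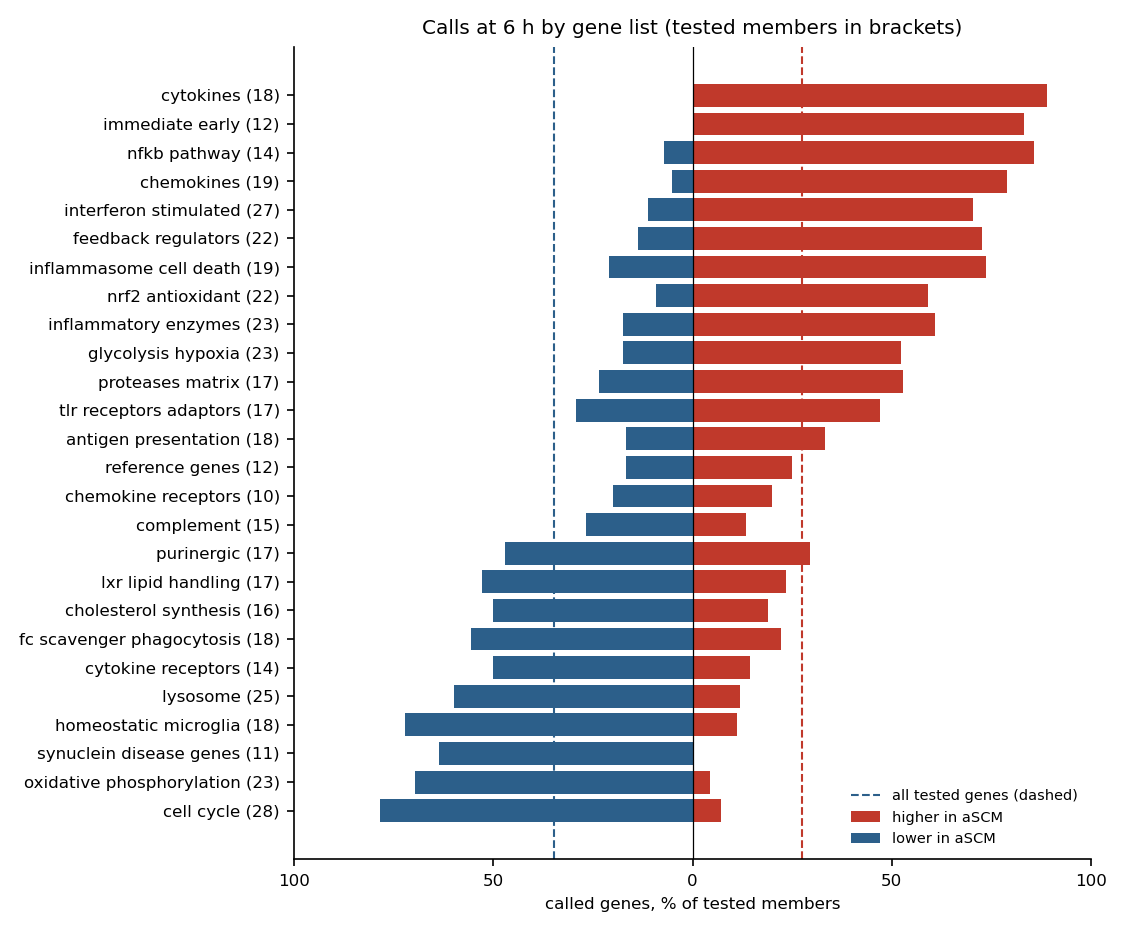
Share of tested members of each gene list called higher (right) or lower (left) in aSCM than in LZCM at 6 h, in percent, with the number tested in brackets and dashed lines at the shares of all tested genes (27.5% and 34.8%). Cytokines reach 88.9% higher and cell cycle genes 78.6% lower.

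Enzymes of inflammation rose in 14 of 23 (60.9%, against 27.5% of all tested genes) and fell in 4 (17.4%, against 34.8%). The median was 0.84. Acod1, which makes the antimicrobial metabolite itaconate, measured 13.79, 13.86 and 13.68 in aSCM against 9.34, 9.27 and 10.11 in LZCM, 18.5-fold higher (limma adjusted p = 5.33e-10). Of the list's other members, chosen after their values were seen, Ass1, which regenerates arginine, rose 15.5-fold, Arg1, which consumes it, 8.17-fold and Gch1, an enzyme needed to make the cofactor of nitric oxide synthase, 7.74-fold. The NADPH oxidase subunit genes Ncf1 and Cybb, chosen likewise, were lower at -0.97 and -0.58.

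Antioxidant genes of the NRF2 programme rose in 13 of 22 (59.1%, against 27.5% of all tested genes) and fell in 2 (9.09%, against 34.8%). The median was 0.25. Slc7a11, the cystine importer that exports glutamate in exchange, measured 9.64, 9.49 and 9.71 in aSCM against 5.79, 5.62 and 5.48 in LZCM, at least 11.6-fold higher (limma adjusted p = 8.3e-12) and above background on 0 of 3 LZCM arrays. The mitochondrial superoxide dismutase gene Sod2 rose by 2.31 on the log2 scale, the thioredoxin reductase gene Txnrd1 by 2.39 and the peroxiredoxin gene Prdx5 by 1.42. The members that fell were the glutathione peroxidase genes Gpx1 at -1.41 and Gpx4 at -0.80, chosen after their values were seen.

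Genes that restrain inflammatory signalling also rose. In the list of feedback regulators 16 of 22 rose (72.7%, against 27.5% of all tested genes) and 3 fell (13.6%, against 34.8%). The median was 1.86. Socs3, which blocks interleukin-6 receptor signalling, measured 9.67, 9.66 and 9.54 in aSCM against 5.82, 5.99 and 6.06 in LZCM, at least 11.6-fold higher (limma adjusted p = 4e-11), and Socs1 was at least 6.25-fold higher (limma adjusted p = 1.2e-09). Neither was above background on an LZCM array. Zc3h12a, the ribonuclease Regnase-1 that degrades cytokine transcripts, rose by 3.41 and the nuclear receptor gene Nr4a3 by 3.17.

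Immediate early genes and activation-dependent transcription factors rose in 10 of 12 (83.3%, against 27.5% of all tested genes) and fell in 0 (against 34.8%). The median was 1.32. Maff rose by 4.33 (1 of 3 LZCM arrays above background), Cebpb, a factor of acute phase and myeloid genes, by 2.02, Myc by 1.94 and Junb by 1.81. The AP-1 founders Jun and Fos were not called, at 0.11 and 0.09, and were chosen after their values were seen.

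Interferon-stimulated genes rose in 19 of 27 (70.4%, against 27.5% of all tested genes) and fell in 3 (11.1%, against 34.8%). The median was 0.93. Ifit3, an RNA-binding antiviral protein, averaged 12.12 ± 0.13 (SD, n = 3) in aSCM against 9.24, 8.51 and 9.19 in LZCM, without overlap and 8.84-fold higher (limma adjusted p = 7.51e-09). Oasl rose by 2.86, Ifit2 by 2.80 and the guanylate-binding protein gene Gbp5 by 2.54 on the log2 scale. The falls, chosen after their values were seen, were the transcription factor gene Irf8 at -1.47 and the immunoproteasome subunit genes Psmb10 at -0.45 and Psmb8 at -0.29. Donor cells of both media had received an adenoviral vector, and the sources used here do not state how much virus either medium carried over. The part of carried-over virus in these rises was not tested.

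Inflammasome and cell death genes rose in 14 of 19 (73.7%, against 27.5% of all tested genes) and fell in 4 (21.1%, against 34.8%). The median was 0.71. Nlrp3, the inflammasome sensor, measured 11.98, 11.94 and 11.81 in aSCM against 8.83, 8.97 and 8.77 in LZCM, 8.32-fold higher (limma adjusted p = 8.3e-12). Its adaptor gene Pycard went the other way, at 8.99, 8.86 and 9.18 against 11.50, 11.48 and 11.47, 5.54-fold lower (limma adjusted p = 7.55e-11). Ripk2, the kinase of NOD receptors, rose by 2.58. Casp1, the protease of the same complex, was lower at -1.02, chosen after its value was seen. The sensor and the adaptor and protease of the complex thus differed in direction in the same arrays.

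Proteases and matrix genes rose in 9 of 17 (52.9%, against 27.5% of all tested genes) and fell in 4 (23.5%, against 34.8%). The median was 0.37. Mmp3, stromelysin-1, measured 10.45, 10.17 and 9.84 in aSCM against 5.61, 5.32 and 5.58 in LZCM, at least 16.8-fold higher (limma adjusted p = 4.29e-11) with no LZCM array above background. Serpinb2, the plasminogen activator inhibitor of macrophages, rose by 3.43 on the log2 scale, and the metalloprotease genes Mmp14 and Mmp12 rose 7.47-fold and 6.13-fold. Plau, urokinase, the protease that this inhibitor blocks, was lower at -2.36, chosen after its value was seen.

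Genes of antigen presentation and co-stimulation rose in 6 of 18 (33.3%, against 27.5% of all tested genes). They fell in 3 (16.7%, against 34.8%), with a median of 0.10. The rises above 1 log2 unit were not in the peptide-presenting molecules. Cd40, the receptor for T cell help, measured 12.14, 12.03 and 12.03 in aSCM against 7.93, 7.99 and 8.12 in LZCM, 16.6-fold higher (limma adjusted p = 2.95e-12), the adhesion molecule gene Icam1 rose by 2.82 and the co-stimulatory Cd86 by 1.82. RT1-DMb, which loads peptides onto MHC class II, fell by 1.62. Complement genes rose in 2 of 15 (13.3%) and fell in 4 (26.7%), both below the shares of all genes, with a median of 0.03. C3ar1, the receptor of the fragment C3a, fell by 2.17 and factor B, Cfb, rose by 1.02, while C2 at -0.32 and Serping1, the C1 inhibitor, at -0.38 fell by less. With 75th percentile scaling the complement list held 4 rises and 2 falls.

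**Figure D4:**
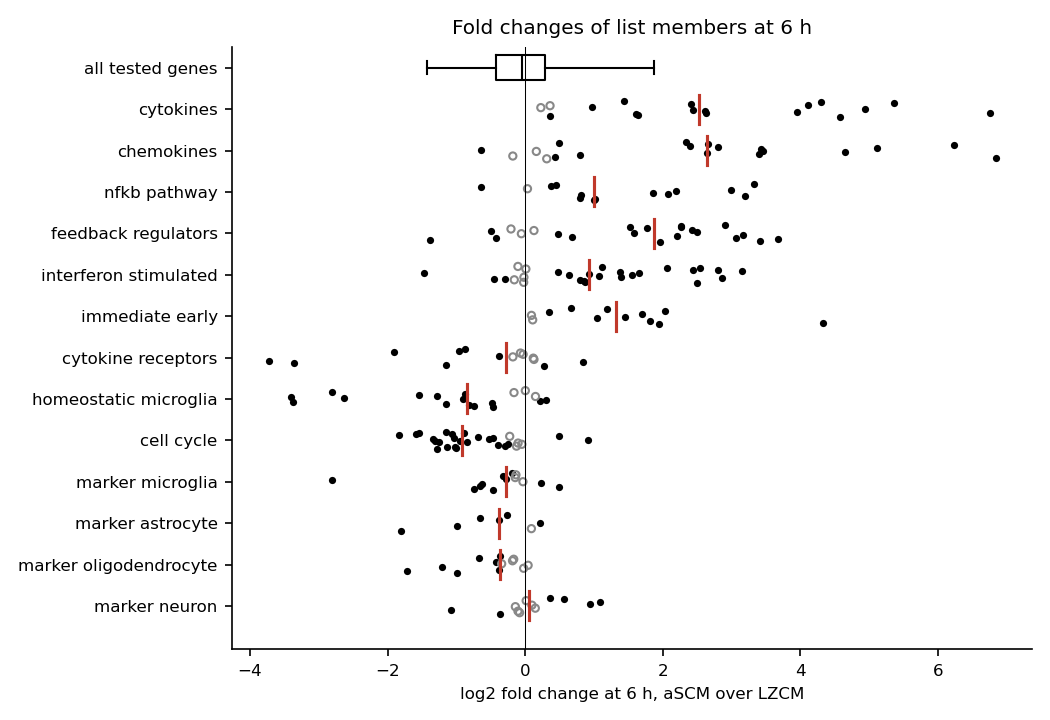
Log2 fold change at 6 h, aSCM over LZCM, of the tested members of selected gene lists, filled where called and open where not, with a red bar at the list's median. The box shows the quartiles of all tested genes and its whiskers enclose the central 95% of them. Chemokines have the highest median of the groups described in the text (2.63) and cell cycle genes a median of -0.91.

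Genes of resting microglia were mostly lower. Of 18 tested, 13 fell (72.2%, against 34.8% of all tested genes) and 2 rose (11.1%, against 27.5%). The median log2 fold change was -0.84 against -0.04 for all genes. Besides P2ry12, Slc2a5 and Cx3cr1, the ADP receptor gene P2ry13 fell by 2.63. Trem2, a lipid receptor of phagocytic microglia, measured 14.15, 14.30 and 14.21 in aSCM against 14.96, 14.97 and 14.94 in LZCM, 1.67-fold lower (limma adjusted p = 8.95e-07). The list of general microglial markers had a median of -0.28, and its members moved both ways. Some of them lay near the top of the scale, such as Fcer1g with means of 15.44 in aSCM and 15.47 in LZCM. How far this limits their changes was not tested.

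Of 17 purinergic receptor and ectoenzyme genes tested 5 rose (29.4%, against 27.5% of all tested genes) and 8 fell (47.1%, against 34.8%), with a median of -0.16. The adenosine receptor genes Adora2a and Adora2b were the largest rises, Adora2b by 3.24, and the ADP receptor genes P2ry12 and P2ry13 the largest falls. Receptors for uptake of particles and debris fell in 10 of 18 (55.6%) and rose in 4 (22.2%), with a median of -0.47. The efferocytosis kinase gene Mertk fell by 1.28 and the scavenger receptor gene Colec12 by 1.33, while the inhibitory Fc receptor gene Fcgr2b rose by 2.03 and the amplifying receptor gene Trem1 by 1.25.

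Lysosomal genes fell in 15 of 25 (60%, against 34.8% of all tested genes) and rose in 3 (12%, against 27.5%). The median was -0.28. Ctsc, a protease that activates granule enzymes, measured 11.76, 11.80 and 11.52 in aSCM against 13.70, 13.73 and 13.74 in LZCM, 4.1-fold lower (limma adjusted p = 6.74e-10). Lipa, lysosomal acid lipase, fell by 1.80 and Psap, the precursor of the saposins, by 0.77, while the proton pump subunit gene Atp6v0d2 rose by 1.91. Scaling each array to its 75th percentile gave 10 lower and 6 higher.

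Genes of sterol synthesis fell in 8 of 16 (50%, against 34.8% of all tested genes) and rose in 3 (18.8%, against 27.5%). None moved by 2-fold, and the median was -0.23. Pmvk fell by 0.95, Ebp by 0.80 and Dhcr7 by 0.53 on the log2 scale, and Idi1 rose by 0.59. Genes of LXR signalling and lipid handling fell in 9 of 17 (52.9%) and rose in 4 (23.5%), with a median of -0.35. The sterol exporters Abcg1 and Abca1 differed in direction, with Abcg1 at 11.30, 11.33 and 11.44 in aSCM against 12.79, 12.89 and 12.71 in LZCM, 2.71-fold lower, and Abca1 higher by 0.86. Fabp4, a fatty acid carrier, rose by 1.37.

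In energy metabolism, genes of glycolysis and the hypoxia response rose in 12 of 23 (52.2%, against 27.5% of all tested genes). They fell in 4 (17.4%, against 34.8%), with a median of 0.27. Adm, the vasodilator adrenomedullin, rose by 2.37, the lactate transporter gene Slc16a1 by 1.62 and Vegfa by 1.61, while the phosphofructokinase gene Pfkp fell by 1.39. Genes of oxidative phosphorylation fell in 16 of 23 (69.6%, against 34.8%) and rose in 1 (4.35%, against 27.5%), with a median of -0.30. Ndufa8, a complex I subunit, measured 10.83, 10.90 and 10.65 in aSCM against 11.80, 11.84 and 11.80 in LZCM, 2.03-fold lower, and Sdhd, Atp5f1a and Atp5f1c fell by 0.67, 0.64 and 0.57. With 75th percentile scaling the list held 8 lower and 4 higher calls.

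Proliferation genes fell as a group. Of 28 cell cycle genes tested, 22 fell (78.6%, against 34.8% of all tested genes) and 2 rose (7.14%, against 27.5%). The median was -0.91. The mitotic kinase gene Cdk1 measured 10.52, 10.48 and 10.47 in aSCM against 11.76, 11.92 and 11.82 in LZCM, 2.54-fold lower (limma adjusted p = 5.7e-09). Ccnb2, its cyclin partner, measured 10.28, 10.20 and 9.90 against 11.88, 12.01 and 12.01, 3.58-fold lower. The mitotic genes Bub1b and Aurkb fell by 1.58 and 1.55. The rises were the inhibitor gene Cdkn1a at 0.91 and Ccnd1 at 0.49, both chosen after their values were seen. Some markers of other glial cells, as tallied above, were lower in the same arrays. Among those that fell, Sox10, a factor of the oligodendrocyte lineage, measured 8.29, 8.32 and 8.57 against 10.09, 10.23 and 9.99, 3.28-fold lower, Olig1 fell by 1.20 and Ugt8 by 0.99, and the glutamate transporter gene Slc1a3 of astrocytes fell by 1.80. Their part in the fall of proliferation genes was not tested.

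Genes linked to Parkinson's disease and synuclein fell in 7 of 11 tested (63.6%, against 34.8% of all tested genes) and rose in 0. The median was -0.33. Pink1, a kinase that marks damaged mitochondria, measured 8.21, 8.12 and 8.25 in aSCM against 9.61, 9.74 and 9.76 in LZCM, 2.85-fold lower (limma adjusted p = 7.74e-10). Scarb2, which carries glucocerebrosidase to lysosomes, fell by 0.99, Atp13a2, a lysosomal polyamine transporter, by 0.78 and Gpnmb by 0.65. Reference genes rose in 3 of 12 (25%, against 27.5% of all tested genes) and fell in 2 (16.7%, against 34.8%). Their median was -0.05. Actb was not called at 0.10, although its other probes were lower at -0.37 and -0.21, and neither were B2m at -0.09, Gapdh at -0.08, Pgk1 at -0.05, Ppia at 0.02, Rplp0 at -0.04 and Rpl13a at -0.17. The sign of Actb, B2m, Gapdh, Pgk1, Rplp0, Rpl13a and Tbp depended on the setting. Ywhaz rose by 0.49, Hprt1 by 0.23 and Tbp by 0.20 (the last 2 not called without LZCM replicate 2 or 3), while Gusb, a lysosomal enzyme gene, fell by 1.32 and Sdha, a complex II subunit, by 0.44.

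The effect at 6 h was set against the effect of the same media at 24 h, measured on other arrays within the same normalization and fit. Over all tested genes 32.1% were higher and 29.6% lower at 24 h, and the difference between the effects was called in 57.4%. Of the 15 largest rises, 14 were also higher at 24 h and 1, Ccl20, was lower at a log2 fold change of -1.27. In 12 of the 15 the effect at 24 h was smaller by the test of the difference. The genes were chosen for their size at 6 h, which that test uses too, and so a smaller effect at 24 h is favoured by the choice. Of all genes called higher at 6 h 1322 had a lower effect at 24 h and 238 a higher, against 2345 and 2566 of all tested genes. For Ptgs2 the log2 fold change was 6.01 at 6 h and 5.81 at 24 h, a difference that was not called (limma adjusted p = 0.41), and the same held for Ccl4 (5.11 and 4.65, limma adjusted p = 0.11) and Il1a (4.94 and 4.52, limma adjusted p = 0.17). Before normalization the aSCM values at 6 h lay 0.52 to 0.73 below the array maximum for Ptgs2, 0.12 to 0.35 for Ccl4 and 0.40 to 0.48 for Il1a. How far this limits their effects at 6 h, and so the comparison with 24 h, was not tested. Cflar went from 5.02 to 3.14 and Ch25h from 4.68 to 2.58. For Il6, Hcar2, Nos2, Cd69 and Clec4e the LZCM arrays at 24 h were all below background, so their effects at 24 h include signals below background and are not exact.

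With the same limit of selection, all 15 of the largest falls had a smaller fall, or a rise, at 24 h by the test of the difference. At 24 h 11 were still lower, 2 were higher and 2 were not called. Adap2 went from -4.81 to -0.25, Il21r from -3.73 to 0.93 and Tmem37 from -3.49 to 1.02, while P2ry12 stood at -3.41 and -2.77. Of the 184 genes at least 4-fold higher at 6 h, 135 were higher at 24 h, 17 lower and 32 not called, and of the 76 at least 4-fold lower 51 were lower, 13 higher and 12 not called.

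Tlr2 had a log2 fold change of 1.03 at 6 h and 0.93 at 24 h, whereas Tlr4 went from -1.44 to 0.57 and Cd14 from 1.08 to 2.85. The difference between times was called for Tlr4 and Cd14 and not for Tlr2. Mean levels of Cd14 were 15.31 at 6 h and 15.03 at 24 h in aSCM, and 14.24 and 12.18 in LZCM. Its larger effect at 24 h thus went with a lower control level and not with a higher level in aSCM. At 6 h its aSCM values lay 0.23 to 0.57 below the array maximum, and how far this limits that effect was not tested. Genes that were not called or slightly lower at 6 h, Tlr6 (-0.08) and Myd88 (-0.21), were higher at 24 h at 1.81 and 1.11.

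**Figure D5:**
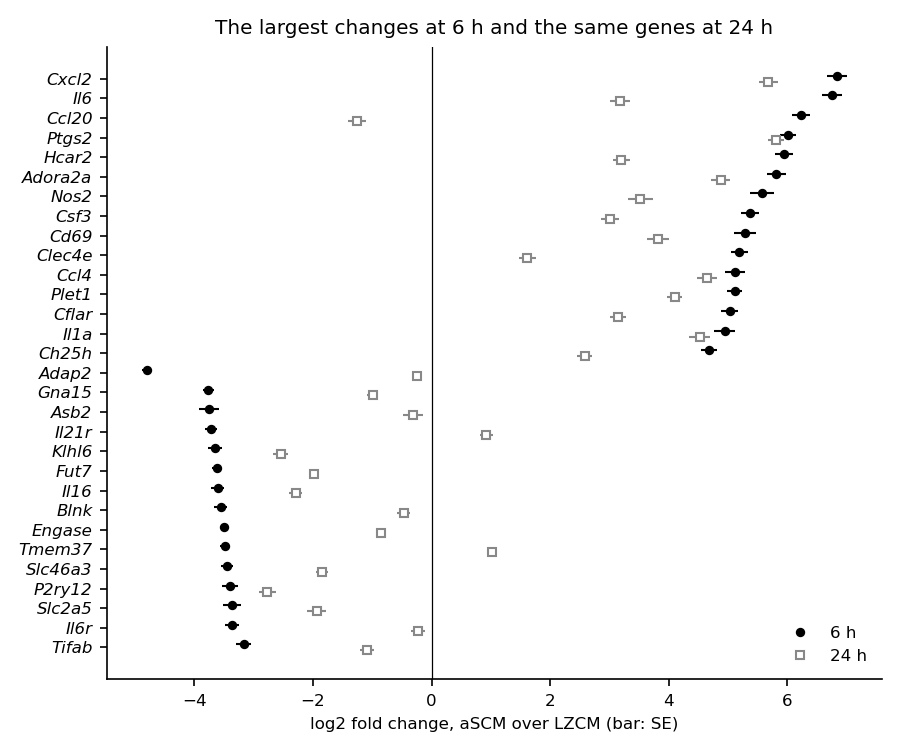
Log2 fold change of aSCM over LZCM with its standard error at 6 h (circles) and at 24 h (squares) for the 15 largest rises and the 15 largest falls at 6 h. Most squares lie nearer to 0 than the circles, Ccl20 lies at 6.22 and -1.27, and Ptgs2 at 6.01 and 5.81.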

How the data were processed

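RNA of 12 microglial samples was hybridized to Illumina rat bead arrays. The authors deposited log2 signals of 22523 probes on each array, not normalized between arrays. R 2.9.1 is named per the submitters' processing notes. The sources used here do not state the chip layout or any background correction before deposit. These values were made linear, corrected per array with normexp (offset 16), quantile normalized and returned to log2. Background was a normal distribution around each array's mode (one-sided p under 0.05), and 12351 probes above it on at least 3 of 12 arrays were tested. Fold changes of dim genes are understated by the offset. The 12 arrays shared 1 limma 3.58.1 fit (R 4.3.3) of 4 group means, with 8 residual and 4.19 prior degrees of freedom, in which log2 fold changes had a median standard error of 0.10. Their number limits the precision.

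GEO's platform annotation named 13793 probes and left 8730 unnamed, and 13752 were updated by Entrez identifier to RefSeq's GRCr8 table. The brightest probe stood for a gene. A gene below background on all arrays of the dimmer group is given as "at least" a fold, the brighter group's mean over the higher of its own signal and the lowest detected signal. Named genes were the 15 largest rises and falls among called genes without overlap, up to 4 called members of each list, and all Toll-like receptor and reference genes. Others are said to be chosen after their values were seen. Members and lists were chosen with earlier results of these data known. After normalization, deviations from the group mean correlated at -0.03, 0.12 and 0.06 between aSCM and LZCM arrays of the same replicate number at 6 h. Deposited medians fell with the replicate number in LZCM (7.18, 7.05 and 6.96) and in aSCM (7.19, 6.98 and 6.77). Quantile normalization removes such a shift of whole arrays, so the correlations do not settle whether replicate numbers paired the samples. The pipeline was also run on simulated data, but the outcome is not given here and is not used as evidence. Alternatives covered background correction, scaling, filter, probe choice, variance model, replicate block, the authors' normalized log2 values and each array left out.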

Additional observations from a re-analysis of the deposited data

Results flagged for a closer look

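The medium effect at 24 h differed from that at 6 h in 4911 of 8556 tested genes, by limma's test of the difference with Benjamini-Hochberg adjustment. The log2 fold change at 24 h minus that at 6 h was, among the largest rises, Cxcl2 -1.16, Il6 -3.57, Ccl20 -7.49, Hcar2 -2.74, Adora2a -0.94, Nos2 -2.05, Csf3 -2.36, Cd69 -1.47, Clec4e -3.57, Plet1 -1.01, Cflar -1.88 and Ch25h -2.10. Each of these effects was smaller at 24 h, and that of Ccl20 had turned. The genes were chosen for their size at 6 h, which favours this direction. Il6, Hcar2, Nos2, Cd69 and Clec4e were below background on every LZCM array at 24 h, so their differences include values near the detection limit.

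Among the largest falls the same difference was Adap2 4.56, Gna15 2.77, Asb2 3.45, Il21r 4.65, Klhl6 1.10, Fut7 1.64, Il16 1.31, Blnk 3.09, Engase 2.65, Tmem37 4.51, Slc46a3 1.60, P2ry12 0.64, Slc2a5 1.43, Il6r 3.13 and Tifab 2.08. The choice by size at 6 h applies here too. Il16, Slc46a3 and Tifab were below background in aSCM at 6 h, and Il16 also at 24 h, so their differences include values near the detection limit.

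In the Toll-like receptor list the difference was Cd14 1.78, Cd36 0.73, Irak1 0.30, Irak2 -1.53, Irak3 2.13, Irak4 0.98, Myd88 1.32, Ticam2 2.27, Tlr4 2.01, Tlr5 1.16 and Tlr6 1.90. Irak2 alone of these 11 genes had the lower log2 fold change at 24 h. Tlr5 was below background on every aSCM array at 6 h and every LZCM array at 24 h. The effect also differed in 90 of 109 other named genes. Outlying arrays were not tested, since each group has 3 arrays.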

How the results depend on the processing

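Of 145 called genes among 156 named, 131 kept their call and sign in all 23 alternatives. Leaving out each array in turn gave 6584 to 6883 called probes, 2937 to 3070 higher and 3647 to 3813 lower, 2189 to 2324 genes higher and 2781 to 2906 lower. Genes at least 2-fold higher were then 611 to 619 and lower 580 to 614, at least 4-fold higher 182 to 187 and lower 73 to 80, list genes higher 183 to 194 and lower 141 to 147, and genes whose effect differed between the times 4687 to 4888.

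Genes at least 4-fold lower numbered 76, against 48 without background correction, 115 with background from each array's mode and 48 with the authors' normalized values. Without normalization between arrays 1516 probes and 1169 genes were higher and 1001 genes were at least 2-fold lower. The deposited values as they are gave 1399 probes and 1093 genes higher, 382 at least 2-fold and 122 at least 4-fold higher, and 3018 genes whose effect differed between the times. The cause was not tested. The share of rises among called probes was 44.6%, with 26.8% to 54.2% over the scalings tried, and rises outnumbered falls only with the 75th percentile (2839 genes higher, 2577 lower). Signs turned, with at least 1 of the values called, for Pgk1 (0.22) and Rplp0 (0.25) with 75th percentile scaling, for Tbp (-0.031 and -0.033) without normalization and with the deposited values, and for Actb (-0.16) with the mean of its probes. Values of other genes that were not called in the reported fit also spanned 0 over the alternatives, with no call on the turned side, among them B2m (up to 0.21), Gapdh (up to 0.15), Rpl13a (up to 0.08), Map3k7 (-0.20 to 0.20), Irak1 (-0.26 to 0.06) and Tlr6 (up to 0.0005).

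The labels do not say what a shared replicate number means. With the replicate number as a block 7178 probes were called against 7082, and 2 named genes, Hprt1 and Tbp, lost their call. Dim probes limit the comparison: 27.7% of the dimmest quartile of probes were called, with a median standard error of 0.13, against 68.5% and 0.07 in the brightest quartile.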
